A study of Mus musculus with 12 samples.

Results

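RNA sequencing of cell pellets was used to follow primary mouse cartilage progenitors between day 8 (D8) and day 10 (D10) of a serial differentiation protocol, after 1 and 3 days in the same osteogenic medium. Members were chosen by time point: the 3 D8 and the 3 D10 libraries, 6 of the 12 libraries of the series, and in them the 17674 of 28244 listed genes whose deposited log2 value reached 1 in 3 or more of the 12 libraries. The cells were mesenchymal progenitors taken from the cartilage of C57/BL6 pups aged 5 or 6 days. They were pelleted, held for 7 days in chondrogenic medium (MesenCult-ACF Chondro Differentiation Kit) and then moved to osteogenic medium (MesenCult Osteo Stimulation Kit), with a medium change every 4 days. No genotype, transgene or compound differed between D8 and D10, so the comparison is one of time alone, in which days in osteogenic medium, days since the last medium change and age of the pellet cannot be told apart. The number of pups or cell preparations behind the 3 replicates is not given in the sources used here, and p-values therefore measure only the spread between these samples, which may be technical. The other libraries, at D7 (the end of the chondrogenic phase) and D28 (21 days in osteogenic medium), entered the variance estimate and are given only where they place a D8 or D10 value.

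Growth plate chondrocytes lay down a matrix of type II collagen, aggrecan and matrilins, then enlarge and express type X collagen. The pace of this maturation is set by a loop in which Indian hedgehog, made by prehypertrophic cells, acts through Patched and Gli factors and raises parathyroid hormone-related protein, which signals through Pth1r. FGF receptor 3 restrains chondrocyte growth through the ERK kinases, BMP and Wnt ligands drive bone formation and are held back by secreted antagonists, and osteoblasts add osteopontin, bone sialoprotein and osteocalcin to the matrix. The 2 time points ask what moved in these programs while the medium stayed the same.

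Between D8 and D10, 1708 of the 17674 genes tested (9.66%) were called in limma, that is, they differed by 1 log2 unit or more and had an adjusted p (Benjamini-Hochberg) under 0.05. Of these, 721 genes (4.08% of those tested) were higher and 987 (5.58%) were lower at D10. Falls were also larger, with a median log2 difference of -1.72 among genes called lower against 1.45 among genes called higher, and 365 falls but only 167 rises reached a log2 difference of 2. More than 50% of the tested genes were called lower, and none higher, in the lists of cartilage matrix, elastic fibre, small proteoglycans, hedgehog and PTHrP signaling, contraction, and complement and acute phase proteins. Genes called higher included 3 ligands of the EGF receptor, 8 of 21 feedback inhibitors and targets of ERK, Ptgs2, Il6 and several stress genes. The median difference of all genes tested was 0.

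**Figure D1:**
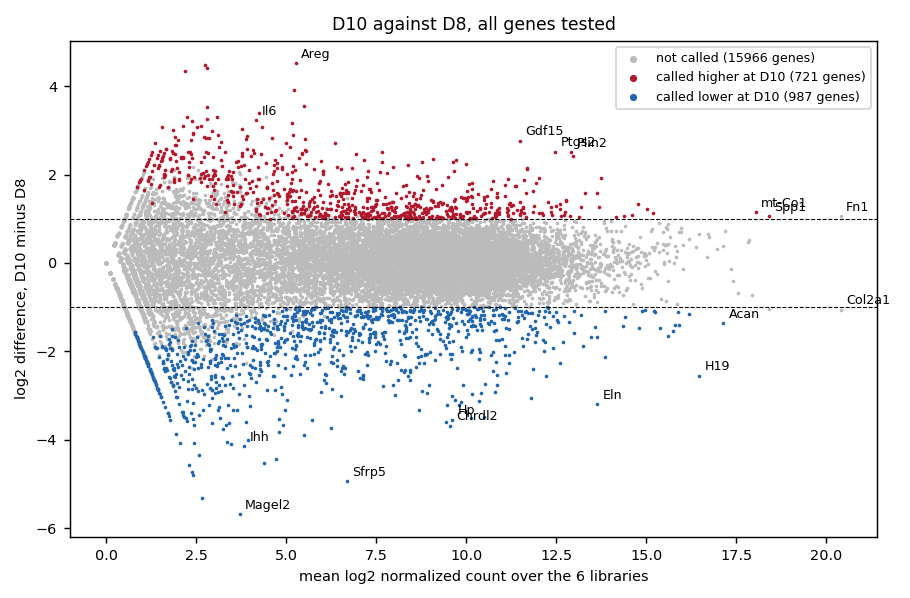
Log2 difference between D10 and D8 (vertical axis) against the mean log2 normalized count over the 6 libraries (horizontal axis) for each of the 17674 genes tested, with dashed lines at a difference of 1 and -1. The 721 genes called higher are red and the 987 called lower are blue, and 365 blue against 167 red points lie at least 2 units from 0.

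Library depth is known only through the lowest levels, since the deposited values were equalized between libraries. Relative depth ran from 0.962 to 1.22 at D8 and from 0.730 to 1.05 at D10, and the number of genes at 0 ran from 11055 to 11624 at D8 and from 11762 to 12383 at D10. The level of 1 read was 0.66 to 1.12 on the log2 scale at D8 and 1.22 to 1.81 at D10, so for the lowest genes a count of 0 at D10 bounds a level less tightly. A floor of 3 reads, 2.87 in the shallowest library, was used as the level below which a value is a bound. Read levels and bounds cover counting error only. D10 replicate 1 was the shallowest library and stood apart from the other two. Of the genes tested, 16.0% and 15.5% differed by 1 or more between it and the others, against 13.3% between D10 replicates 2 and 3 and 11.2% to 13.0% among the D8 libraries. Without D10 replicate 1, 1415 genes were called, 544 higher and 871 lower, and 1244 of the 1708 calls were kept with the same direction. In bulk RNA, fewer cells of a type and less RNA per cell cannot be told apart.

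The pellets carried the markers of their label. All 10 chondrocyte markers examined were well above the read floor, and their summed unlogged level went from 2500000 to 2900000 at D8 to 1250000 to 1310000 at D10, and 7 of the 10 were called lower. Most of that sum is Col2a1, whose level on this scale is fixed by its rank. Without Col2a1, a step taken after the data were seen, the sums were 516000 to 911000 at D8 and 295000 to 359000 at D10. Of 8 osteoblast markers, 7 were well above the read floor, while Ifitm5 lay near or under it in all 6 libraries. Their sums, carried by Col1a1, were 158000 to 340000 at D8 and 109000 to 198000 at D10, which overlap, and 3 were called lower. Erythroid markers were near absence, with 5 of 6 at most at 3 reads in all 6 libraries. Of 8 macrophage markers, Cd68 and Lyz2 were above the median level of all genes and the other 6 were low, and their sums overlapped between groups (865 to 1120 at D8, 820 to 1460 at D10, none of the markers called). Markers of other cell types moved with time. Skeletal muscle markers summed to 1110 to 1770 at D8 and 405 to 544 at D10, with 5 of 8 called lower, and tendon markers to 44600 to 56200 and 15800 to 20100, with 3 of 5 called lower. Schwann and neural markers summed to 4470 to 5280 and 2130 to 3660 (2 of 6 called lower), and adipocyte markers to 1820 to 2440 and 949 to 1420 (3 of 6 called lower). Endothelial markers summed to 256 to 419 and 399 to 515, with 1 of 6, Cdh5, called lower (-2.23). That sum was carried by Vwf, which was not called (mean 7.76 at D8 and 8.65 at D10). The osteoclast markers went in summed level from 6820 to 9430 at D8 to 12000 to 13300 at D10, carried mostly by Ctsk, which was not called (mean 12.96 at D8 and 13.57 at D10 on the log2 scale). Atp6v0d2, a proton pump subunit, was called higher (2.13), while Dcstamp, needed for osteoclast fusion, had at most 3 reads in all 6 libraries. The part of these other cell types in the results was not tested.

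Cartilage matrix genes moved one way. Of 26 tested, 17 were called lower (65.4%, against 5.58% of all genes) and none higher, with a median difference of -1.47, and 16 were called lower without D10 replicate 1. Matn3, which encodes matrilin 3 of the pericellular network (chr12:8947929-8972028, GRCm38), had log2 values of 10.99, 11.34 and 11.93 at D8 and 8.11, 8.53 and 8.22 at D10. The groups were far from overlapping, and Matn3 was 8.78-fold lower (log2 difference -3.13, SE 0.20, limma adjusted p = 9.31e-08). Cilp, the cartilage intermediate layer protein (chr9:65265180-65280605), went from 12.06, 11.42 and 12.28 to 8.72, 8.87 and 8.82, a difference of -3.12. The small proteoglycan Epyc (difference -2.75), Cnmd, the angiogenesis inhibitor chondromodulin (-2.56), Matn1 (-2.49) and the link protein Hapln1 (-2.14) followed. Comp, the cartilage oligomeric matrix protein, stood at 16.43, 16.82 and 16.58 at D8 and 15.06, 15.26 and 15.31 at D10 (difference -1.40, SE 0.19, limma adjusted p = 8.18e-05). Acan, the core protein of aggrecan, was at 17.38, 17.46 and 18.61 and then at 16.08, 16.58 and 16.69 (difference -1.37), with D8 replicate 3 the highest library. Without that library the Acan difference was -0.97 and was no longer called, nor was it in a fit of the D8 and D10 libraries alone (limma adjusted p = 0.0514).

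The minor collagen chains Col9a1 (-1.53), Col9a2 (-1.64) and Col9a3 (-1.11, and -0.94 without D10 replicate 1) fell, as did Col27a1 (-1.78), whereas Col11a1 hardly differed (17.41 and 17.27 in the means). Col2a1 had a peculiar pattern that comes from the scale: it held the largest value, 20.92, in all 3 D8 libraries and the next largest, 19.87, in all 3 D10 libraries. Fn1, the fibronectin gene, took the same values in reverse order. On this equalized scale, not corrected for length, the step between the first and the second rank is the same in every library, and neither gene was called (difference -1.06, limma adjusted p = 0.191 for Col2a1, and 1.06, adjusted p = 0.0931 for Fn1). Prg4, the lubricin gene of the joint surface, stayed at 15.8 and 15.9 in the means.

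Of 14 elastic fibre genes tested, all had a negative difference and 8 were called lower (57.1%, median -1.29). Eln, the elastin gene (chr5:134702593-134747323), fell from 14.97, 15.31 and 15.43 at D8 to 11.59, 12.58 and 11.96 at D10, 9.13-fold (difference -3.19, SE 0.19, limma adjusted p = 9.07e-08). The microfibril genes Mfap4 (-2.62), Mfap2 (-2.38) and Mfap5 (-1.81) were also called, while Fbn1 (-0.56) and Fbln5 (-0.22), a fibrillin and a fibulin, were not. Among small leucine-rich proteoglycans 8 of 15 were called lower (53.3%, median -1.19; 6 without D10 replicate 1), led by Epyc and by Ogn, the osteoglycin gene (-2.54). Bgn and Dcn, for biglycan and decorin, were not called (0.14 and -0.74).

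Of 21 collagen genes of other tissues, 9 were called lower (42.9%, median -0.57), among them Col8a2 (-1.80), Col6a2 (-1.47), Col5a1 (-1.40) and Col12a1 (-1.42). Col1a1 (-0.41) and Col1a2 (-0.73), the chains of type I collagen in bone and tendon, were not. Of 35 proteases, inhibitors and crosslinking enzymes, 5 were called lower (14.3%), with Timp4, a metalloproteinase inhibitor (-2.86), and Loxl2, a lysyl oxidase (-1.68), the largest falls, and none was called higher. Without D10 replicate 2, 9 were called lower. Of 11 thrombospondins, tenascins and related genes, 5 were called lower, among them Tnn, tenascin N (-2.91), and Thbs4 (-2.07), and 1, Tnr, higher (3.30). Without D10 replicate 1, 3 were called lower. The differences of 19 integrin genes ran from -0.87 to 1.03, with a median of -0.01 and 1 call, Itgb8, whose difference of 1.03 was not called without D8 replicate 3 or without D10 replicate 1.

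The hedgehog and PTHrP list, 14 genes tested, had 8 called lower (57.1%), none higher and a median of -1.58, and the count was 8 again without D10 replicate 1. Ihh, the Indian hedgehog ligand, read 5.95, 5.29 and 6.47 at D8 and 0.00, 2.84 and 2.44 at D10, where 2 of 3 libraries held at most 3 reads (difference -4.14, SE 0.66, limma adjusted p = 0.000332). Its receptor and target Ptch1 read 12.56, 12.73 and 12.92 against 11.08, 11.36 and 10.88 (-1.63, SE 0.15). The values of Ptch1 did not overlap and were each tight. Gli1, the transcription factor used as a readout of the pathway, went from 8.65, 8.92 and 9.17 to 7.58, 7.63 and 6.87 (-1.55). The hedgehog-binding Hhip (-1.68), the coreceptor Boc (-1.62) and Gli2 (-1.27) also fell, whereas Gli3, mainly a repressor, differed by 0.10. On the PTHrP side, the receptor gene Pth1r fell from 12.23, 12.33 and 12.45 to 10.09, 10.52 and 10.32 (4.06-fold, SE 0.17 on the log2 scale), while the ligand gene Pthlh was not called (-0.50).

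Of 9 genes of hypertrophic cartilage, Ihh, Pth1r, Ibsp and Alpl were called lower, and Spp1 higher. Col10a1, the defining collagen of hypertrophic cells, had values of 17.27, 18.02 and 17.46 at D8 and 17.65, 18.32 and 18.32 at D10, which overlap (difference 0.52, limma adjusted p = 0.415). Mmp13, collagenase 3, did not move either (12.87 and 13.00 in the means).

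Of 22 genes of bone matrix and mineralization, 4 were called lower (18.2%) and 1 higher (4.55%), with a median of 0.13. Ibsp, bone sialoprotein, went from 12.03, 11.88 and 11.73 to 8.59, 9.73 and 9.14 (6.62-fold lower, difference -2.73, SE 0.29, limma adjusted p = 1.4e-05). Alpl, the tissue alkaline phosphatase that releases phosphate for mineral, fell by 2.07 on the log2 scale. Smpd3, a sphingomyelinase needed for mineralization, went from 11.59, 11.37 and 11.97 to 8.42, 8.84 and 8.79 (-2.96). Omd, osteomodulin, fell by 1.89. Spp1, osteopontin, was at 18.02, 18.32 and 17.27 and then at 18.92 in all 3 D10 libraries, where it took rank 3 of all genes, so that its difference of 1.05 is again one of ranks, and it was not called without D8 replicate 3 (0.75, limma adjusted p = 0.0858), without the filter on low values (0.0527), with low values raised to the floor (0.152) or in a fit of the D8 and D10 libraries alone (0.0940). The osteocalcin genes Bglap (0.53) and Bglap2 (1.06, limma adjusted p = 0.0549) were not called, and as near-identical copies they may share reads. Dmp1, a marker of osteocytes, was at 7.33, 7.33 and 7.21 at D8 and at 7.42, 9.09 and 8.68 at D10 (1.10, adjusted p = 0.0833), with D10 replicate 1 close to the D8 values. Leaving out 1 library gave 0 to 2 called higher, 0 without D8 replicate 3 and 2 without D8 replicate 2 or any 1 of the D10 libraries.

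Among skeletal transcription factors, 33 of 37 were not called. The shares called, 2.7% higher and 8.11% lower, are near those of all genes (4.08% and 5.58%). The 1 called higher was Egr1 (1.76), given below. Sox9, the master regulator of chondrocytes, was at 12.11 and 12.44 in the means, and Runx2, that of osteoblasts, at 10.03 and 9.81. Sp7, the osteoblast factor osterix downstream of Runx2, fell from 10.67, 10.80 and 10.37 to 8.95, 9.44 and 9.35 (-1.37, limma adjusted p = 0.000136). Nkx3-2, a repressor of chondrocyte maturation, fell by 1.47 on the log2 scale. Sox6, a partner of Sox9, fell by 1.07, and was under the threshold without D8 replicate 3 (-0.91) or D10 replicate 1 (-0.99).

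**Figure D2:**
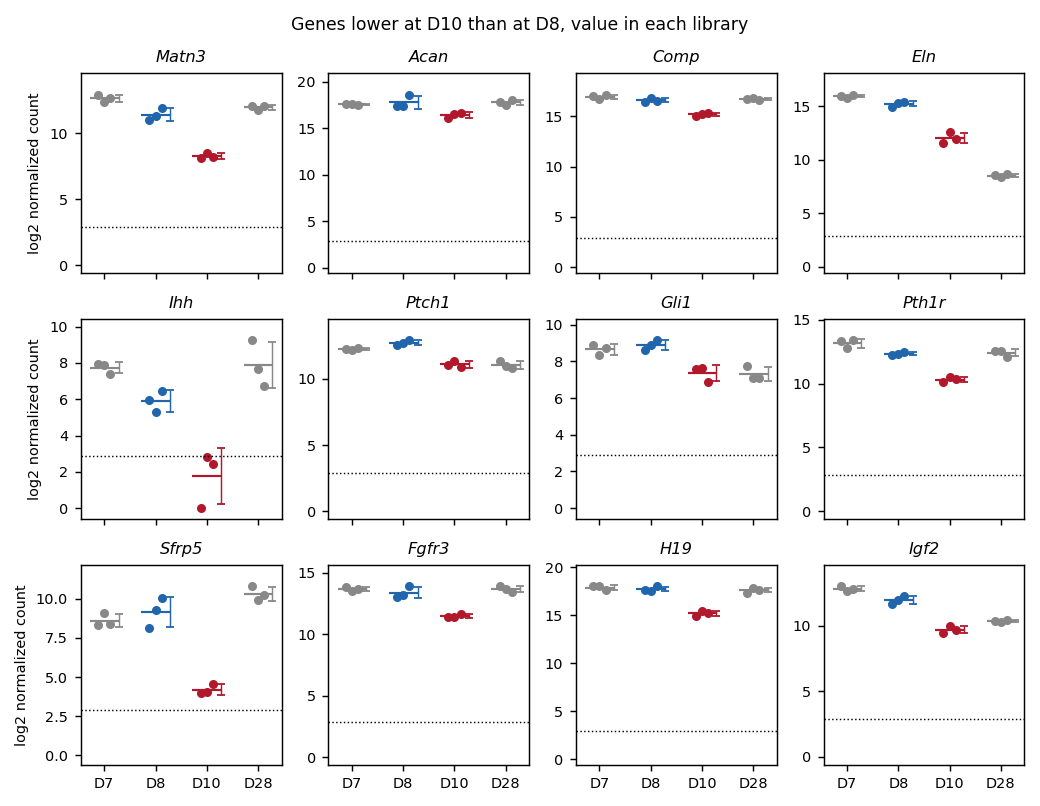
Log2 normalized count of 12 genes called lower at D10, in each library (points) at D7, D8, D10 and D28, with the mean (line) and SD (bar, n = 3); the dotted line is the 3-read floor of 2.87. In each panel the 3 D10 values (red) lie under the 3 D8 values (blue), and Ihh comes down to the floor.

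Some secreted antagonists were called lower in both the BMP and the Wnt pathway (30.8% and 50%, against 5.58% of all genes). Of the targets that report pathway activity, 0 of 7 BMP and 1 of 10 Wnt genes were called. These target counts are near the share of all genes called, 9.66%. Whether antagonists and targets differ was not tested. Among 13 BMP antagonists 4 were called lower (30.8%) and none higher. Chrdl2, a chordin-like BMP binder (chr7:100006172-100034728), showed the largest fall among called genes above the median level, from 11.04, 11.15 and 12.01 to 7.88, 7.68 and 7.57 (12.9-fold, difference -3.68, SE 0.20, limma adjusted p = 5.61e-08). Nog, noggin, fell from 8.58, 8.99 and 9.51 to 6.72, 6.69 and 7.00 (-2.22). Fst (-1.27) and Bmper (-1.21) were the other two. Among 13 ligands, Bmp3, which opposes other BMPs, fell by 2.34, and Bmp2 (1.21) and Gdf6 (1.59) rose. Bmp2 was at 8.87, 8.85 and 9.0 at D8 and at 9.39, 10.27 and 10.68 at D10, and without D10 replicate 3 its difference was 0.92. Gdf6 was not called without D8 replicate 2 (0.93) or without D10 replicate 1 (1.36). None of the 6 receptors and none of the 7 targets was called in limma, although 3 and 5 had an unadjusted p under 0.05, with values of -0.50 for Id1 and -0.94 for Id3. Over all 39 BMP genes, 5 were called lower, but 11 without D10 replicate 2 and 8 without D10 replicate 3.

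Among 10 secreted Wnt inhibitors tested, 5 were called lower (50%, median -1.39). Sfrp5 had the widest gap, with 8.12, 9.27 and 10.04 at D8 against 3.98, 4.05 and 4.57 at D10 (30.8-fold, difference -4.94, SE 0.37, limma adjusted p = 5.09e-07). Frzb, also called Sfrp3 (chr2:80411970-80447625), went from 11.28, 11.04 and 11.89 to 8.03, 8.19 and 8.34 (-3.22), and Wif1 from 9.97, 9.99 and 10.04 to 7.96, 8.20 and 7.80 (-2.01). Sfrp1 (-2.05) and Sfrp2 (-2.10) fell in the same range. Of 16 ligands, 5 were called lower, among them Wnt5b (-1.34), Wnt6 (-2.40) and Wnt16 (-2.27), and only Wnt9a was called higher (1.03). Wnt6 and Wnt16 lay near the read floor and were not called with low values raised to it, and Wnt16, whose groups overlap, was not called without D8 replicate 1, D8 replicate 2 or D10 replicate 2. Wnt9a was lost without D8 replicates 2 or 3 or D10 replicates 1 or 2. Without D10 replicate 1 the counts were 3 and 0. Among 10 targets, only Lgr5, a receptor for R-spondins and a stem cell marker, was called (5.59 and 2.37 in the means, -3.23). Axin2, the usual readout of the canonical pathway, was at 5.68 and 5.81.

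Of 13 FGF receptors and ligands, 5 were called lower (38.5%) and 2 higher. Fgfr3 went from 13.04, 13.18 and 13.87 to 11.36, 11.35 and 11.63 (3.78-fold, difference -1.92, SE 0.18, limma adjusted p = 4.72e-06), and Fgfr2 from 11.74, 11.54 and 11.82 to 9.74, 10.09 and 10.07 (-1.73). Fgfr4 (chr13:55152640-55168759) was at 5.37, 5.12 and 5.68 at D8 and had at most 3 reads in each D10 library, at least 5.72-fold lower. The decoy receptor gene Fgfrl1 fell by 1.23, and Fgfr1 was not called (-0.45). Fgf10 rose from 5.18, 3.39 and 3.71 to 7.07, 5.74 and 6.06 (2.20), and Fgf9 rose from at most 3 reads in each D8 library to a mean of 3.78, at least 1.88-fold, a call lost with low values raised to the floor. Fgf5, at 4.5 and 3.0 in the means, was called lower, but not without D8 replicate 1, D8 replicate 2 or D10 replicate 3.

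Of 12 EGF receptors and ligands, 3 ligands were called higher (25.0%, against 4.08% of all genes) and 1 receptor lower. Areg, amphiregulin, had the largest rise of any called gene with more than 3 reads in all 6 libraries, from 3.45, 3.06 and 2.5 at D8 to 8.20, 6.86 and 7.49 at D10 (22.9-fold, difference 4.52, SE 0.63, limma adjusted p = 0.000118). The D8 values of Areg were low and lay far under every D10 value. Ereg, epiregulin, rose from 6.84, 6.31 and 6.05 to 8.91, 8.70 and 9.10 (2.51), and Epgn, epigen, from at most 3 reads in every D8 library to a mean of 3.58, at least 1.63-fold, which likewise fell under the threshold with low values raised to the floor. Hbegf was higher by 0.88 with an adjusted p of 0.00174 and stayed under the fold threshold. The receptor gene Egfr did not move (9.76 and 9.79), and Erbb3 fell (5.46 and 3.06).

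In a list of feedback inhibitors of ERK signaling and other genes induced by it, such as ETS factors, 8 of 21 genes were called higher (38.1%) and none lower, with a median of 0.72. Dusp4, a phosphatase of nuclear ERK (chr8:34807297-34819894), rose from 7.56, 7.12 and 7.14 to 10.17, 9.18 and 9.14 (4.66-fold, difference 2.22, SE 0.34, limma adjusted p = 0.000227). Spry2, a Sprouty inhibitor of receptor signaling, rose from 8.67, 8.72 and 8.47 to 10.98, 10.38 and 10.72 (2.07, SE 0.19), and Dusp6, the cytoplasmic ERK phosphatase, from 8.10, 7.90 and 7.92 to 9.68, 9.23 and 9.43 (1.47). Etv1 (1.81), an ETS factor induced by ERK, Dusp5 (1.47), Spred3 (1.42), Dusp10 (1.26) and Spry4 (1.09) were also called, Spry4 not without D8 replicate 2 (0.92) or D10 replicate 1. Without D10 replicate 1 the count was 7, and without D8 replicate 1 or D10 replicate 3 1 gene was called lower. Dusp9, outside the list but among the 12 largest rises, went from 7.30, 6.98 and 6.34 to 9.62, 8.48 and 9.04 (2.17).

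Immediate early factors, which answer growth factors within minutes, mostly had positive differences. Egr1 rose from 10.42, 10.15 and 10.01 to 12.42, 11.82 and 11.62 (1.76, limma adjusted p = 1.41e-05), and Klf6 from 10.34, 10.16 and 10.16 to 12.77, 11.68 and 11.90 (1.90). Atf3 (1.51) and Fosl1 (1.17) rose too, Fosl1 with a difference of 0.92 without D10 replicate 1. Fos was at 8.42 and 8.63, Jun differed by 0.23, and Klf2 fell. Of 24 genes, 4 were called higher (16.7%, against 4.08% of all genes), 1 was called lower and 22 had a positive difference.

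**Figure D3:**
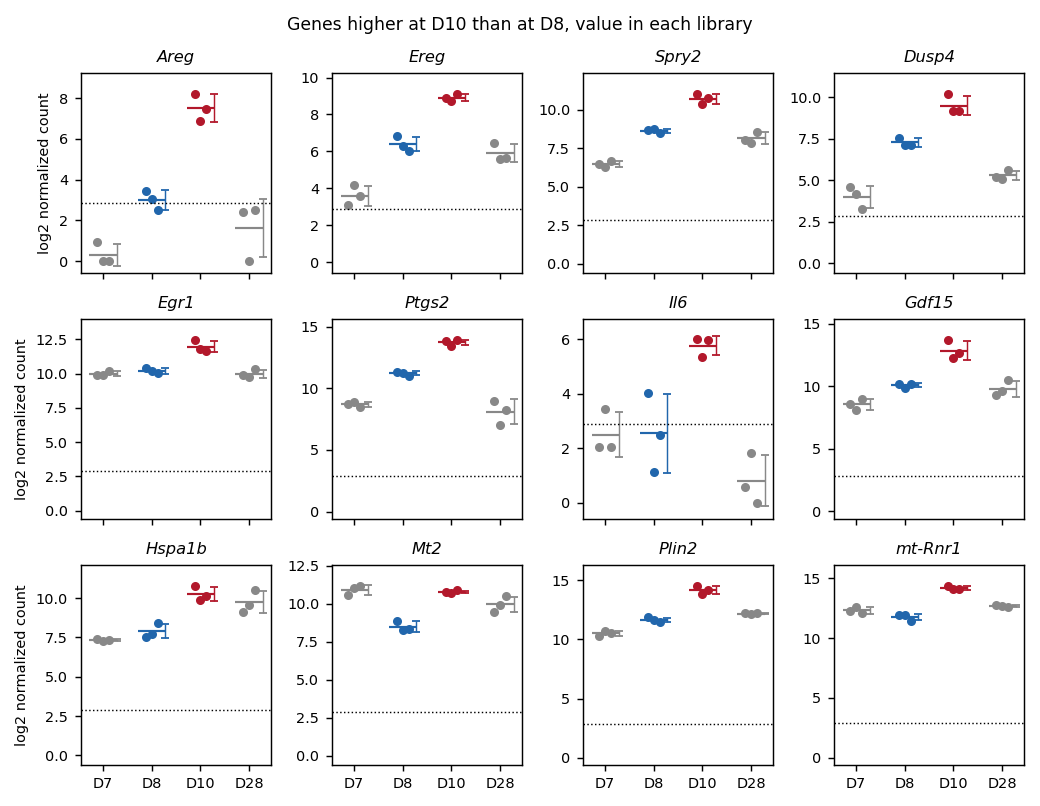
Log2 normalized count of 12 genes called higher at D10, in each library (points) at D7, D8, D10 and D28, with the mean (line) and SD (bar, n = 3); the dotted line is the 3-read floor of 2.87. The 3 D10 values (red) lie over the 3 D8 values (blue) in each panel, and Mt2 stands at D10 close to its D7 level.

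In the prostaglandin pathway, Ptgs2, the inducible cyclooxygenase (chr1:150100031-150108227), rose from 11.34, 11.26 and 11.04 to 13.84, 13.47 and 13.89 (5.72-fold, difference 2.52, SE 0.32, limma adjusted p = 5.43e-05). The prostaglandin E2 receptor gene Ptger2 rose from 3.91, 3.71 and 3.20 to 5.53, 5.23 and 5.20 (1.71), and Hpgd, the enzyme that inactivates prostaglandins, fell from 8.51, 8.63 and 8.46 to 7.04, 7.15 and 6.72 (-1.56). Ptges (-0.26) and Ptgs1 (-0.05), the E synthase and the constitutive cyclooxygenase, were not called.

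Among cytokines, Il6 rose from 4.02, 1.12 and 2.5 to 6.00, 5.36 and 5.97 (3.23, SE 0.69, limma adjusted p = 0.00281), with D8 values that scattered around the read floor. The alarmin Il33 (1.52) and its receptor Il1rl1 (7.26 and 8.53 in the means, 1.27) were called higher, but Il33 was lost without any one of 4 libraries, D8 replicates 1 and 2 and D10 replicates 1 and 3 (adjusted p from 0.0909 to 0.155). Chemokines split. Cxcl12, which retains hematopoietic cells in the marrow, fell from 10.72, 9.84 and 10.53 to 7.40, 7.48 and 7.40 (7.65-fold, -2.94), and Cxcl14 fell by 1.35. The neutrophil chemokine Cxcl2 (chr5:90903871-90905938) rose from at most 3 reads in each D8 library to 4.45, 3.91 and 5.30, at least 3.20-fold, and Ccl8 likewise at least 2.01-fold, though it was not called with low values raised to the floor. Cxcl1 was called (1.90), but not without D8 replicate 3 or D10 replicates 2 or 3. Of 47 genes of the list 9 were called higher (19.1%) and 4 lower.

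Complement and acute phase genes fell, 14 of 21 tested (66.7%), with a median of -1.56, none called higher, and again 14 without D10 replicate 1, but 10 with low values raised to the floor. Hp, the hemoglobin scavenger haptoglobin (chr8:109575128-109579172), went from 11.73, 11.08 and 11.34 to 7.36, 8.15 and 7.99 (11.7-fold, difference -3.55, SE 0.22, limma adjusted p = 9.07e-08). The protease inhibitor Serpina3n went from 13.49, 12.78 and 13.72 to 10.16, 10.10 and 10.55 (-3.06), and C3, the central complement component, from 9.83, 9.21 and 9.85 to 7.79, 6.75 and 7.11 (-2.42). Serping1 (-2.27), C4b (-1.71), C1s1 (-1.34) and C1ra (-1.23) moved the same way. C1qb had at most 3 reads in each D10 library, at least 1.93-fold lower. C1qb, C1qc, Saa1 and Saa2 are the 4 calls lost when low values were raised to the floor, and C1qc was also lost without D8 replicate 1, D8 replicate 2 or D10 replicate 2. Of 22 interferon response genes, 0 were called in limma, which is near the shares of all genes (4.08% higher, 5.58% lower), with 3 at an unadjusted p under 0.05, and 1 was called lower without D10 replicate 1 or D8 replicate 3.

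Of 19 IGF system genes, 6 were called lower (31.6%) and 1 higher. H19, a noncoding RNA among the highest values of these libraries, fell from 17.65, 17.56 and 18.02 to 14.91, 15.44 and 15.23 (5.87-fold, difference -2.55, SE 0.24, limma adjusted p = 4.46e-06). Its neighbor Igf2 fell from 11.65, 11.93 and 12.25 to 9.45, 9.99 and 9.65 (-2.25), and Igf1 from 10.16, 9.46 and 9.74 to 7.28, 7.99 and 7.76 (-2.11). The receptor genes Igf1r (-0.37) and Igf2r (-0.11) were not called. Igf2bp1, an RNA-binding protein, was called higher (1.08), but not without D8 replicate 3 or D10 replicate 1. In a list of 20 imprinted genes written after these values were seen, 10 were called lower and 1, Phlda2, higher, the latter lost without any single library. Mest (chr6:30723547-30748465), a paternally expressed gene, went from 11.58, 10.82 and 11.30 to 7.60, 7.60 and 7.73 (12.1-fold, -3.59). Magel2 (chr7:62377010-62381640) had values of 6.41, 5.85 and 7.36 at D8 and at most 3 reads in each D10 library, at least 12.7-fold lower. Dlk1 (-3.01), Cdkn1c, a cell cycle inhibitor (-2.37), Zim1 (-2.17), Peg10 (-2.11) and Peg3 (-1.33) were also called lower.

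Genes of smooth muscle and myofibroblast contraction fell in 8 of 15 cases (53.3%, median -1.36). Acta2, smooth muscle actin, went from 10.42, 9.83 and 9.61 to 7.79, 7.74 and 7.56 (4.78-fold, -2.26), and Myl9 (-2.45), Mylk (-1.83) and Des (-1.59) fell, while Tpm1 (-0.15) and the serum response targets Ccn1 (0.08) and Ccn2 (-0.34) were not called. The skeletal muscle markers given above moved in the same direction, and their part in these falls was not tested. Vascular signals fell in part, 5 of 15 (33.3%): Vegfd (-2.01), Angpt2 (-1.57), Angpt1 (-1.49), Angptl7 (-1.33) and the coreceptor Nrp1 (-1.12), while Vegfa was not called (0.50).

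In the Notch list, 2 of 8 ligands and receptors were called higher and 2 of 8 targets and modulators lower. Without D10 replicate 1 the counts were 1 higher in all and 4 lower in all. Dll1 rose from 3.91, 4.34 and 4.29 to 6.70, 6.27 and 5.90 (2.11, limma adjusted p = 0.00863), and Jag1 from 8.93, 8.75 and 8.83 to 9.92, 9.70 and 9.91 (1.01, a hair over the threshold and under it, at 0.97 to 0.98, without D8 replicate 2, D10 replicate 1 or D10 replicate 3). Heyl, a target, had at most 3 reads in each D10 library, at least 2.5-fold lower, and was not called with low values raised to the floor or in a fit of the D8 and D10 libraries alone, and Hes1 was not called (0.40). In the TGF-beta list Inhba, the activin A subunit, rose (1.16) and Tgfbi fell (-1.75), and 16 of 19 were not called. In the TGF-beta list 10.5% were called higher and 5.26% lower, against 4.08% and 5.58% of all genes. The number called lower went from 1 to 3 without D8 replicate 2 or D10 replicate 2.

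Several metabolic and stress genes were among the largest rises. Gdf15, a stress cytokine induced by ATF4 and p53 (chr8:70629393-70632456), had the largest rise among called genes above the median level, from 10.16, 9.91 and 10.21 to 13.68, 12.24 and 12.66 (6.82-fold, difference 2.77, SE 0.33, limma adjusted p = 3.13e-05). Plin2, which coats lipid droplets (chr4:86648386-86670060), rose from 11.86, 11.65 and 11.46 to 14.50, 13.84 and 14.16 (2.51, SE 0.16). Pim1, a survival kinase (chr17:29490753-29496112), went from 8.65, 8.59 and 8.38 to 11.71, 10.27 and 10.61 (2.32). In each of Gdf15, Plin2 and Pim1 the highest value was that of D10 replicate 1, and the other D10 values were also above all D8 values. Of 18 ATF4 genes, 2 were called higher (11.1%, against 4.08% of all genes), Gdf15 and the cystine transporter Slc7a11 (1.38), and 1 lower, with a median of -0.07. Chaperones of the endoplasmic reticulum had none called higher and 2 of 19 lower (10.5%, against 5.58% of all genes). Over both branches 3 genes were called lower, but 1 without D8 replicate 3 or D10 replicate 1. Of 16 p53 targets 2 were called higher (12.5%, against 4.08% of all genes), Gdf15 and Trp53inp1 (1.28), and Cdkn1a was at 13.5 and 13.6.

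The metal-binding metallothioneins rose, Mt2 (chr8:94172664-94173568) from 8.88, 8.27 and 8.31 to 10.75, 10.70 and 10.87 (4.88-fold, 2.29) and Mt1 from 12.68, 12.29 and 12.56 to 14.19, 13.96 and 14.12 (1.58). They belong to a list of glucocorticoid-responsive genes, of which 4 of 20 were called higher (20%) and 2 lower (1 without D8 replicate 3). Pdk4, which spares glucose by inhibiting pyruvate dehydrogenase, rose (1.92), but Fkbp5 (-0.49), Tsc22d3 (-0.27) and Per1 (-0.68), the usual reporters of the receptor, were not called. Hsd11b2, which inactivates glucocorticoids, fell from 7.42, 7.31 and 7.58 to 3.76, 4.05 and 2.79 (14.9-fold, -3.90). Cholesterol synthesis genes had 4 of 24 called higher (16.7%) and none lower: Msmo1 (1.89), Insig1 (1.74), Idi1 (1.42) and Fdft1 (1.16, and 0.95 without D10 replicate 1). Adipocyte genes split, with Plin2, Cd36 (1.21) and Cidea (1.11, and 0.89 without D10 replicate 1) higher and 7 of 20 lower, among them Adipoq (-1.43) and Cidec (-1.88).

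Heat shock proteins, snoRNA host genes and genes of the mitochondrial genome were examined after their values had been seen. Of 27 heat shock protein genes, 6 were called higher (22.2%, against 4.08% of all genes) and none lower. Hspa1b went from 7.54, 7.74 and 8.43 to 10.77, 9.88 and 10.12 (2.35), and Hspa1a, a near-identical copy with which it may share reads, rose by 1.88. Hspb1 (1.79), Hspa4l (1.68) and Hsp90aa1 (1.57) rose too, and Hspa8 (1.12) was at 0.81 without D10 replicate 1. Of 14 snoRNA host genes 4 were called higher (28.6%) and all had a positive difference, with Snhg15 going from 8.71, 9.11 and 8.77 to 11.16, 10.81 and 11.36 (2.25) and Snhg1 from 10.42, 10.92 and 10.46 to 12.63, 12.78 and 12.81 (2.14). These spliced noncoding transcripts carry small nucleolar RNAs in their introns. Of 18 mitochondrially encoded genes 6 were called higher (33.3%) and none lower, with a median of 0.93. One of these calls, mt-Nd4l (1.89), was lost without D8 replicate 1 or 3 or any single D10 library. With low values raised to the floor the mt-Nd4l difference was 0.098. The ribosomal RNA mt-Rnr1 rose from 11.92, 11.93 and 11.45 to 14.34, 14.13 and 14.06 (5.32-fold, 2.41), mt-Rnr2 by 1.91 and mt-Co1 by 1.15, the last not called with low values raised to the floor. In every D10 library mt-Co1 took rank 4 of all genes (18.61), so that its difference is one of ranks. The mitochondrial share of all unlogged values was 1.11% to 1.62% at D8 and 2.67% to 3.05% at D10, in libraries that were prepared from polyadenylated RNA. Of 30 nuclear genes of oxidative phosphorylation, 0 were called in limma, which is near the shares of all genes (4.08% higher, 5.58% lower), with 14 at an unadjusted p under 0.05, and a median of -0.20. Whether RNA quality differed between the time points was not tested.

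Proliferation genes were called lower mainly among those of DNA replication. Of 33 DNA replication genes 8 were called lower (24.2%, median -0.71), including the helicase subunits Mcm5 (9.68 and 8.16 in the means, -1.52) and Mcm3 (-1.34), the loader Cdc6 (-1.56) and Uhrf1, which keeps DNA methylation after replication (-1.59). The licensing factor Cdt1 rose (1.10) but was under the threshold without D10 replicate 1 (0.82) or D8 replicate 2 (0.97). Of 30 mitosis genes only Melk was called (-1.26), against 2 without D8 replicate 1 or D10 replicate 2. With all libraries 3.33% of the list was called lower, near the 5.58% of all genes. Mki67 was at 9.87 and 8.95. Whether replication and mitosis genes differ was not tested. Clock genes had 4 of 18 called lower, with Per3 at -1.03 (not called without D8 replicate 3 or D10 replicate 1) and Bhlhe41 at -1.41, and none higher. Without D8 replicate 3, 1 was called lower, and without D10 replicate 2 or 3, 2 were called higher. Glycolysis and hypoxia genes had 1 of 37 called higher, the glucose transporter Slc2a1 (1.04), which was not called without D8 replicate 2 or D10 replicate 1 or in a fit of the D8 and D10 libraries alone, and 2 lower, Aldoc (-1.55) and Egln3 (-1.51). The shares, 2.7% higher and 5.41% lower, are near those of all genes (4.08% and 5.58%). The number called lower was 4 without D10 replicate 2 and 5 without D10 replicate 3.

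**Figure D4:**
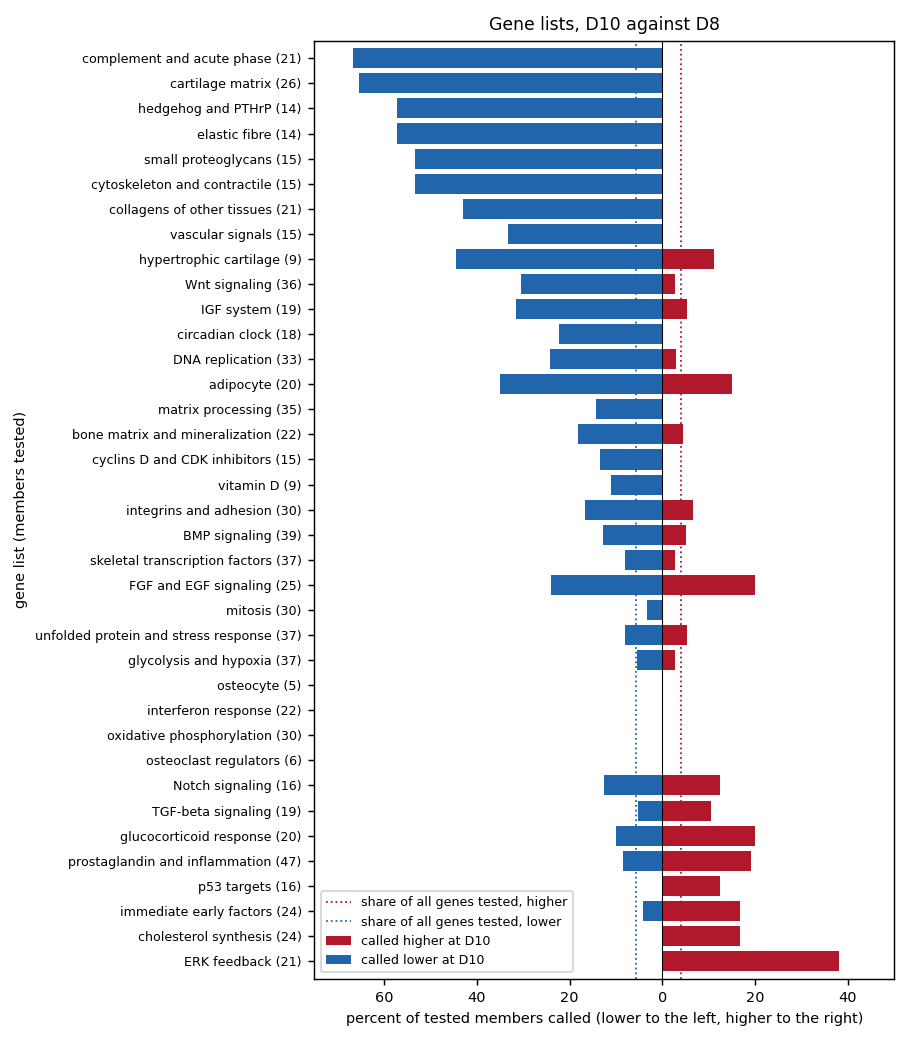
Percent of the tested members of each gene list, without the study's transcription factors and the 4 lists written after the values were seen, that were called higher (red, to the right) or lower (blue, to the left) at D10 against D8, with the number tested in parentheses and dotted lines at the shares of all genes tested, 4.08% and 5.58%. Among the lists drawn, complement and acute phase, cartilage matrix, hedgehog and elastic fibre genes have the largest shares of falls, and the list named ERK feedback has the largest share of rises.

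The study named 12 transcription factors from these same samples as modulated at the intermediate time points, so that their direction is no independent evidence. All 12 were called, 4 higher and 8 lower. Sox8, a relative of Sox9, fell from 8.46, 8.97 and 9.78 to 6.33, 6.01 and 6.54 (-2.77, SE 0.26), and Klf2, a quiescence factor, from 8.10, 8.17 and 9.0 to 6.04, 5.59 and 5.93 (-2.57). These are the only members that kept all 6 values well above the read floor. Zfp648 (chr1:154201187-154205689) was at 5.26, 5.43 and 5.87 and had at most 3 reads in each D10 library, at least 6.26-fold lower. Barx2, Rbpjl, Nr1h4 and Zkscan16 also came down to at most 3 reads in each D10 library, and Klf14 (-3.52) in 2 of 3. Barx2 was at least 3.25-fold lower, whereas the bounds were 1.91-fold for Rbpjl and Nr1h4 and 1.38-fold for Zkscan16, and these 3 calls were lost with low values raised to the floor. Zkscan16 was also not called without D8 replicate 2 (-1.94, limma adjusted p = 0.0617) or in a fit of the D8 and D10 libraries alone (0.0662), nor under the study's own rule, which uses an unadjusted p, and its groups overlap. Among the risers, Alx1, a homeobox factor of the limb and face, went from 3.29, 3.06 and 3.07 to 5.53, 4.81 and 5.58 (2.17) and Hmx3 from 2.03, 2.17 and 3.20 to 6.09, 5.13 and 4.57 (2.80), with 2 of 3 D8 libraries at most at 3 reads. Mesp1, a mesoderm factor, rose from at most 3 reads in each D8 library to 5.53, 3.58 and 3.68, at least 2.62-fold. With a pseudocount of 0.1, Mesp1, Hmx3 and Grhl3 were not called (limma adjusted p = 0.0975, 0.0564 and 0.0757), which leaves 1 of the 4 risers. Grhl3 was at 3.10, 1.77 and 1.46 and then at 5.53, 3.91 and 3.49 (2.20), and was not called without D8 replicate 2, D8 replicate 3 or D10 replicate 1 (limma adjusted p from 0.0506 to 0.0754) or in a fit of the D8 and D10 libraries alone (0.0640), nor under the study's own rule.

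**Figure D5:**
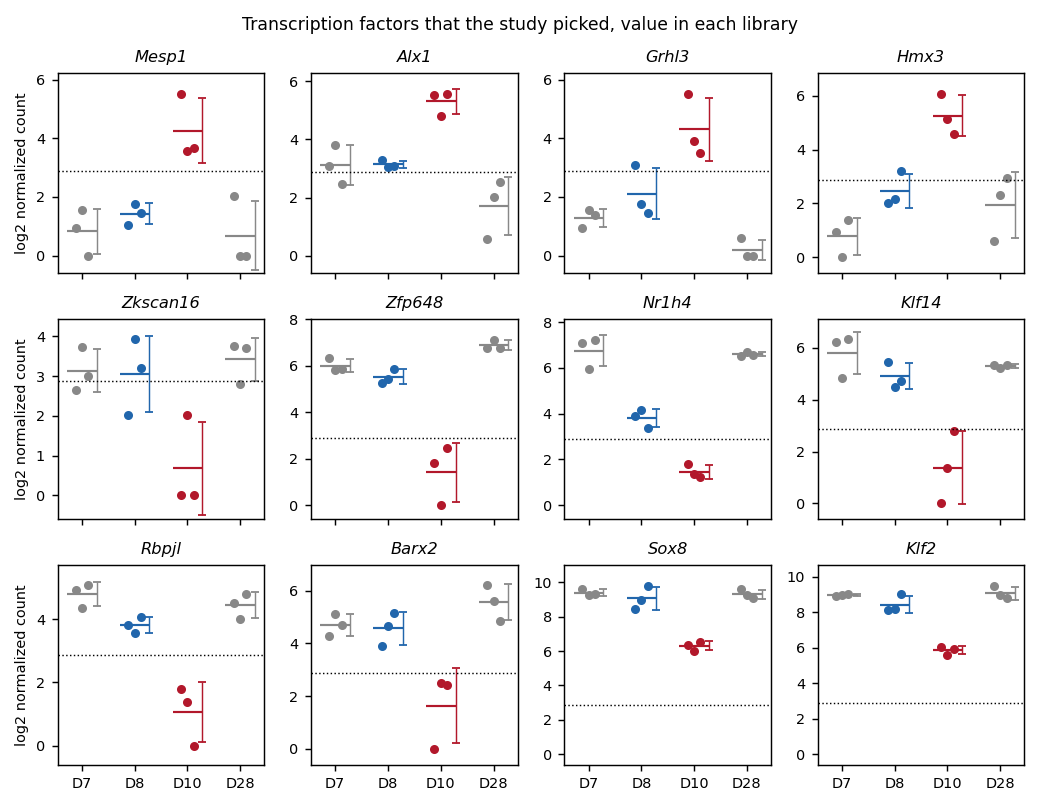
Log2 normalized count of the 12 transcription factors named by the study, in each library (points) at D7, D8, D10 and D28, with the mean (line) and SD (bar, n = 3); the dotted line is the 3-read floor of 2.87. Mesp1, Alx1, Grhl3 and Hmx3 are higher at D10 (red) than at D8 (blue), the other 8 are lower, and only Sox8 and Klf2 stay well clear of the floor in all 6 D8 and D10 libraries.

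Genes that appeared or disappeared were mostly low. Of the 721 genes called higher, 95 had at most 3 reads in every D8 library, and of the 987 called lower, 208 had at most 3 reads in every D10 library. Among all genes tested, 1973 had at most 3 reads in every D8 library and 2492 in every D10 library, where 3 reads stand at a higher level, so the pair of counts cannot be compared. The highest of the former at D10 were Mgam2-ps, a pseudogene whose reads may belong to its parent, Fndc9, Tnr, Cxcl2 and Rln1, the relaxin gene. Fndc9 was at 5.68, 4.42 and 4.79 at D10, at least 4.26-fold higher, and Tnr, tenascin R of the nervous system, at 5.12, 4.42 and 4.66, at least 3.63-fold higher. The highest of the latter at D8 were Magel2, Zfp648, Fgfr4, Kcna5 and Edn2. The potassium channel gene Kcna5 was at 4.89, 5.05 and 5.99 and then at 0 in all 3 D10 libraries (at least 5.41-fold lower), and Edn2, endothelin 2, at 5.85, 4.16 and 5.53 and then at most at 3 reads (at least 4.94-fold).

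The rest of the largest falls were Rtl3 (-3.51), a gene of retrotransposon origin, Chil1 (-3.47), a chitinase-like protein of cartilage and macrophages, Megf6 (-3.32), Penk, the enkephalin precursor (-3.21), and Crispld2 (-3.10). Each had 3 D10 values at least 2 log2 units under the lowest D8 value. Chil1, for one, went from 12.30, 11.78 and 12.59 to 8.67, 8.53 and 9.05 (chr1:134182176-134190181). Of the largest rises, 1810032O08Rik, a noncoding transcript, went from 7.61, 7.67 and 7.59 to 9.95, 9.74 and 10.02 (2.28).

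Promoter sequences of RefSeq (GRCm38.p6, 250 bases before to 50 after the start) were matched to 10437 of the genes tested that have 1 such window, 399 of those called higher and 563 of those called lower. Motifs were searched on both strands by their exact letters. The cAMP response element TGACGTCA was in 4.26% of promoters of genes called higher, 2.66% of those called lower and 2.98% of all. The AP-1 site TGACTCA, the target of Fos and Jun dimers, was in 4.76%, 3.91% and 3.81%, the RUNX site TGTGGT in 14.3%, 15.6% and 13.0%, and the CCAAT box in 34.6%, 34.8% and 38.2%. TTTGAA, the core of the cell cycle element CHR, was in 12.3%, 13.3% and 12.3%, and the E2F site TTTCGCGC in 0.501%, 0.888% and 0.537%. The shares lie close together and were not tested. A match is a description of letters and no evidence of binding. The 150 bases before the start are printed for 4 genes with large changes and a match, on the strand of the gene: Areg and Scg2 (secretogranin 2, 3.27 and 7.17 in the means, difference 3.90), which share the cAMP element, Mt2 with an AP-1 site, and the falling Ibsp with an inverted CCAAT box. Capitals mark the match.
Areg, chr5:91139449-91139598, plus strand: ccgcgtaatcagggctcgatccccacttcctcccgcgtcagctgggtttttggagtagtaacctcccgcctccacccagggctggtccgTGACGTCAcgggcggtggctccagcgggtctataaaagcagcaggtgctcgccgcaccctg
Scg2, chr1:79440027-79440176, minus strand: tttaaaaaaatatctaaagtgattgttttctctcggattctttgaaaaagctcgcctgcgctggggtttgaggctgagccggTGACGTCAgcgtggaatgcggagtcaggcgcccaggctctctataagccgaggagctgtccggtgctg
Mt2, chr8:94172468-94172617, plus strand: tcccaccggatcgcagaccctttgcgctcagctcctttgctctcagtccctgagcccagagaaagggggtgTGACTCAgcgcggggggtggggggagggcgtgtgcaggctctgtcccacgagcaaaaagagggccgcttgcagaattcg
Ibsp, chr5:104299137-104299286, plus strand: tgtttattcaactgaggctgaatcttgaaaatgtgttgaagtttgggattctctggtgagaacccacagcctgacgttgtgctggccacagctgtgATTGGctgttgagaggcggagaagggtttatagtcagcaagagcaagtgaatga
The match begins 61 bases before the start in Areg, 68 in Scg2, 79 in Mt2 and 54 in Ibsp.

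D28 against D7 spans the whole osteogenic phase and shares no library with D10 against D8. In it, 17.3% of the genes tested were called, 8.63% higher and 8.66% lower at D28. Of the 987 genes called lower from D8 to D10, 26.4% were lower and 19.5% were higher at D28 than at D7, and these are 17.0% and 12.6% of the genes called lower and higher there. Of the 721 called higher from D8 to D10, 18.0% were higher and 10.7% lower, which are 8.52% and 5.03% of the calls at D28. Most D10 against D8 calls, 514 of 721 and 534 of 987, were not called over the whole phase. The 2 spans pointed opposite ways for several leading genes. Hp, Frzb and Penk were lower at D10 than at D8 but higher at D28 than at D7, by 3.08, 5.22 and 2.70, as were the Wnt inhibitors Sfrp5 (1.72) and Wif1 (2.26), Cxcl12 (2.10), Timp4 (4.59) and C3 (4.94). Of the complement and acute phase list, 14 of 21 fell from D8 to D10 and 12 of 21 rose over the whole phase. In contrast, Eln (-7.44), Cilp (-4.37), Igf2 (-2.49) and Gli1 (-1.34) were lower over both spans, and Plin2 (1.65), Gdf15 (1.25), Ereg (2.29) and Spry2 (1.68) were higher over both. Whether these effects differ between the spans was not tested. Adipocyte genes were all 20 called higher over the whole phase, although 7 were called lower and 3 higher between D8 and D10, and 29 of 30 mitosis genes were called lower, against 1 between D8 and D10.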

How the data were processed

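Per the paper's methods and the labels, stranded mRNA libraries were read in pairs, trimmed with Trimmomatic 0.36, aligned with HISAT2, annotated with Cufflinks and counted with HTSeq. The submitters' notes name GRCm38, the supplementary methods a human build; the symbols are mouse. The authors merged and equalized the counts and deposited log2 of the value plus 1, 1 value per gene and library, with replicates not pooled. Once sorted, the values of any pair of libraries almost coincide, which is what quantile normalization gives, so differences follow ranks at the top of the scale and library totals are not kept. Low values sit on discrete levels, and reads were read off as the rank of that level within the library.

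Means of the 4 time points (3 libraries each) were modeled by limma (version 3.58.1, under R 4.3.3) for the 17674 genes that reached a value of 1 in 3 or more libraries, with a variance trend on mean expression. P-values are two-sided and Benjamini-Hochberg adjusted over all genes tested, and calls need an absolute difference of at least 1 and an adjusted p under 0.05. Folds are on the log2(value + 1) scale and understate changes of low genes. Where every library of a group had at most 3 reads, a fold is a lower bound, with values under 2.87 raised to it. No 2 libraries were identical. Strand use in the counting is not given in the sources used here, so reads of overlapping genes cannot be told apart.

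Named genes are the 12 largest rises and 12 largest falls among called genes above the median level (7.89) whose groups do not overlap, the 5 highest that rose from or fell to at most 3 reads, up to 4 called members of each list and direction with uncalled members where their role needs a value, and the study's 12 transcription factors. Others named for several members of a group are given as part of that group. Lists and members were chosen with earlier results of these data known, and the heat shock, snoRNA host, mitochondrial and imprinted lists after their values were seen. Scg2 was chosen after its values were seen. Positions are from GENCODE M21 (GRCm38) and promoters from RefSeq (GRCm38.p6). The limma script was tested on simulated data with known changes. Figures were drawn with matplotlib 3.10.9. Alternatives covered the filter, scaling, pseudocount, floor, pairing, samples in the fit, variance prior, test, thresholds and each library left out.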

Additional observations from a re-analysis of the deposited data

How the results depend on the processing

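The 1708 calls depended most on the threshold. With an absolute log2 difference of at least 2, 532 genes were called, 167 higher and 365 lower (1356 for D28 against D7), and with an adjusted p alone 5096, 2452 higher and 2644 lower (6592 for D28 against D7). Over the other settings with all libraries the count ran from 1369, with low values raised to the 3-read level, to 1740 under the study's own rule (a difference above 1 and an unadjusted p under 0.05), and rises made up 39.1% to 44.6% of calls. Median-of-ratios scaling moved the median difference of all genes by -0.0207. Leaving out 1 library gave 1381 to 1789 calls, 544 to 759 higher and 788 to 1030 lower. Deviations from the group means correlated at 0.0378, 0.0665 and -0.0212 for the same-numbered D8 and D10 libraries across all genes. Among genes above the median level the correlations were 0.0913, 0.363 and -0.184. Not every library correlated best with its own number. With 3 libraries per group, these values do not settle whether replicate numbers pair the libraries. With a replicate block 1691 genes were called, 705 higher and 986 lower, and 3030 for D28 against D7. Of 256 named or listed genes that were called, leaving out 1 library lost the call of 9 to 31, the 31 without D10 replicate 1. Raising low values to the 3-read level lost 22, fitting only the D8 and D10 libraries 14, and none reversed under any setting. The cause of these losses was not tested. Depth limits the low genes: where a group holds at most 3 reads in each library, a fold is a bound.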
